A study of Mus musculus with 16 samples.

Results

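The miR-17-92 and miR-106b-25 clusters are paralogous groups of miRNAs, each cut from a single primary transcript, and 10 of their mature miRNAs were followed here in the lateral ventricle (LV) wall of WT and Dgcr8+/- mice. The members were taken as the 10 mature names among the 1881 mouse miRNAs of the array that equal mmu-miR-17-5p, mmu-miR-18a-5p, mmu-miR-19a-3p, mmu-miR-20a-5p, mmu-miR-19b-3p or mmu-miR-92a-3p, the 6 of miR-17-92, or mmu-miR-106b-5p, mmu-miR-106b-3p, mmu-miR-93-5p or mmu-miR-25-3p, the 4 of miR-106b-25. No measured value was used in this choice, but earlier results of these data were known when it was made. The arrays held total RNA from 8 WT littermates and 8 mice with a heterozygous, constitutive loss of Dgcr8, all male, 8 months old and on the C57BL/6J background, with 1 mouse per array. The allele is missing from all cells of these mice and the LV wall holds several cell types besides ependymal cells, so that fewer cells of a type and less miRNA per cell cannot be told apart. The comparison asked which miRNAs of this tissue are present at another level when 1 copy of Dgcr8 is lost.

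Dgcr8 is the RNA-binding partner of the nuclease Drosha, and the complex cuts the hairpins of most miRNAs out of their primary transcripts. Dicer then removes the loop, and one arm, or either arm, of the remaining duplex is loaded into an Argonaute protein. All hairpins of a polycistron are made by transcription in the same number, whereas each is cut and each arm is kept or lost on its own, so that mature miRNAs of one transcript need not have the same level. The miR-17-92 cluster, known for its activation by Myc and its role in lymphomas, promotes proliferation and survival, and its loss in the developing cortex depletes neural progenitors. The miR-106b-25 cluster lies in an intron of Mcm7, a replication helicase gene, and miR-25 and miR-106b have been linked to the proliferation of adult neural stem and progenitor cells.

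The mature sequences of all 10 members, which show who is whose paralog, are given by RefSeq on the assembly GRCm38.p6. On that assembly the 6 hairpins of miR-17-92 lie in the order Mir17, Mir18, Mir19a, Mir20a, Mir19b-1 and Mir92-1 on the plus strand of chr14:115043671-115044506, a stretch of 836 bases. The 3 hairpins of miR-106b-25 lie in the order Mir106b, Mir93 and Mir25 on the minus strand of chr5:138165321-138165818, all inside Mcm7. Sequences are written 5′ to 3′, and capitals mark the seed, bases 2 to 8, with which a miRNA pairs to its targets.
mmu-miR-17-5p: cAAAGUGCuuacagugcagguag
mmu-miR-20a-5p: uAAAGUGCuuauagugcagguag
mmu-miR-106b-5p: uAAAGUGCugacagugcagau
mmu-miR-93-5p: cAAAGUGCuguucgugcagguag
mmu-miR-18a-5p: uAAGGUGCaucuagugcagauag
mmu-miR-19a-3p: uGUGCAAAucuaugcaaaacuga
mmu-miR-19b-3p: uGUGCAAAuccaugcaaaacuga
mmu-miR-92a-3p: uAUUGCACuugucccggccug
mmu-miR-25-3p: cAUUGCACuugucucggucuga
mmu-miR-106b-3p: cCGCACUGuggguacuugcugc
The members fall into 5 seeds. The miR-17 seed has members on both transcripts, the miR-92 seed has 1 on each, the miR-18 and miR-19 seeds are found only in miR-17-92 among the members, and miR-106b-3p has a seed of its own. Counted from 1 at the 5′ end of miR-19a-3p, this miRNA and miR-19b-3p differ at a single base, U11C. MiR-92a-3p and miR-25-3p differ at 3 of 21 compared bases, U1C, C14U and C18U, counted from the 5′ end of miR-92a-3p. The same mature miR-19b-3p and miR-92a-3p are also made from the hairpins Mir19b-2 and Mir92-2 of another cluster on chromosome X, and the array cannot separate the sources.

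MiR-106b-5p and miR-106b-3p come from both arms of 1 hairpin, which is shown since the arms gave different results. The Mir106b hairpin lies at chr5:138165737-138165818 on the minus strand of GRCm38.p6, and capitals mark the 5p arm and then the 3p arm, with 19 bases between them.
Mir106b hairpin: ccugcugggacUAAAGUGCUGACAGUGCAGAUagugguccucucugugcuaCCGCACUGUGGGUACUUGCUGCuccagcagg

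The signal of a miRNA is the mean over its probes on a background-corrected, quantile-normalized scale, with a floor of 1 signal unit, and is given in log2. A log2 fold change is Dgcr8+/- minus WT, fitted with limma over the 495 miRNAs that were detected on at least 8 of the 16 arrays, with Benjamini-Hochberg adjustment over all 495. All 10 members were among these, and 8 of the 10 were detected on all 16 arrays. The exceptions were miR-18a-5p, detected in 7 WT and 5 Dgcr8+/- mice, and miR-106b-3p, detected in 8 WT and 3 Dgcr8+/- mice. Probes of different miRNAs do not bind alike, so no member's level is set against another's. WT arrays detected 495 to 540 miRNAs and Dgcr8+/- arrays 467 to 492, and no spot was saturated. Slide 1 held 6 WT and 2 Dgcr8+/- arrays and slide 2 held 2 WT and 6 Dgcr8+/- arrays. Dgcr8+/- replicate 2 stood apart with the lowest hybridisation spike-in signal of all arrays, 12.7 in log2 against 13.9 to 15.1 in WT mice.

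Of the 10 members, miR-106b-3p, miR-25-3p and miR-18a-5p had lower levels in Dgcr8+/- mice and 0 members had higher ones (adjusted p below 0.05, limma). With unadjusted p-values from limma, 4 were lower and 1 was higher below 0.05. Among all tested miRNAs, 27.9% were lower and 28.3% higher, so 3 lower members of 10 is close to the share of the array as a whole. The lower members were 2 of the 4 of miR-106b-25 and 1 of the 6 of miR-17-92. The median log2 fold change was −0.25 for the members of miR-106b-25 and 0.13 for those of miR-17-92, beside 0.04 for all tested miRNAs. MiR-106b-3p was the only member for which all Dgcr8+/- mice lay below all WT mice, as they did for 17.2% of the tested miRNAs. No member lay wholly above WT, against 7.07% of the tested miRNAs.

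**Figure D1:**
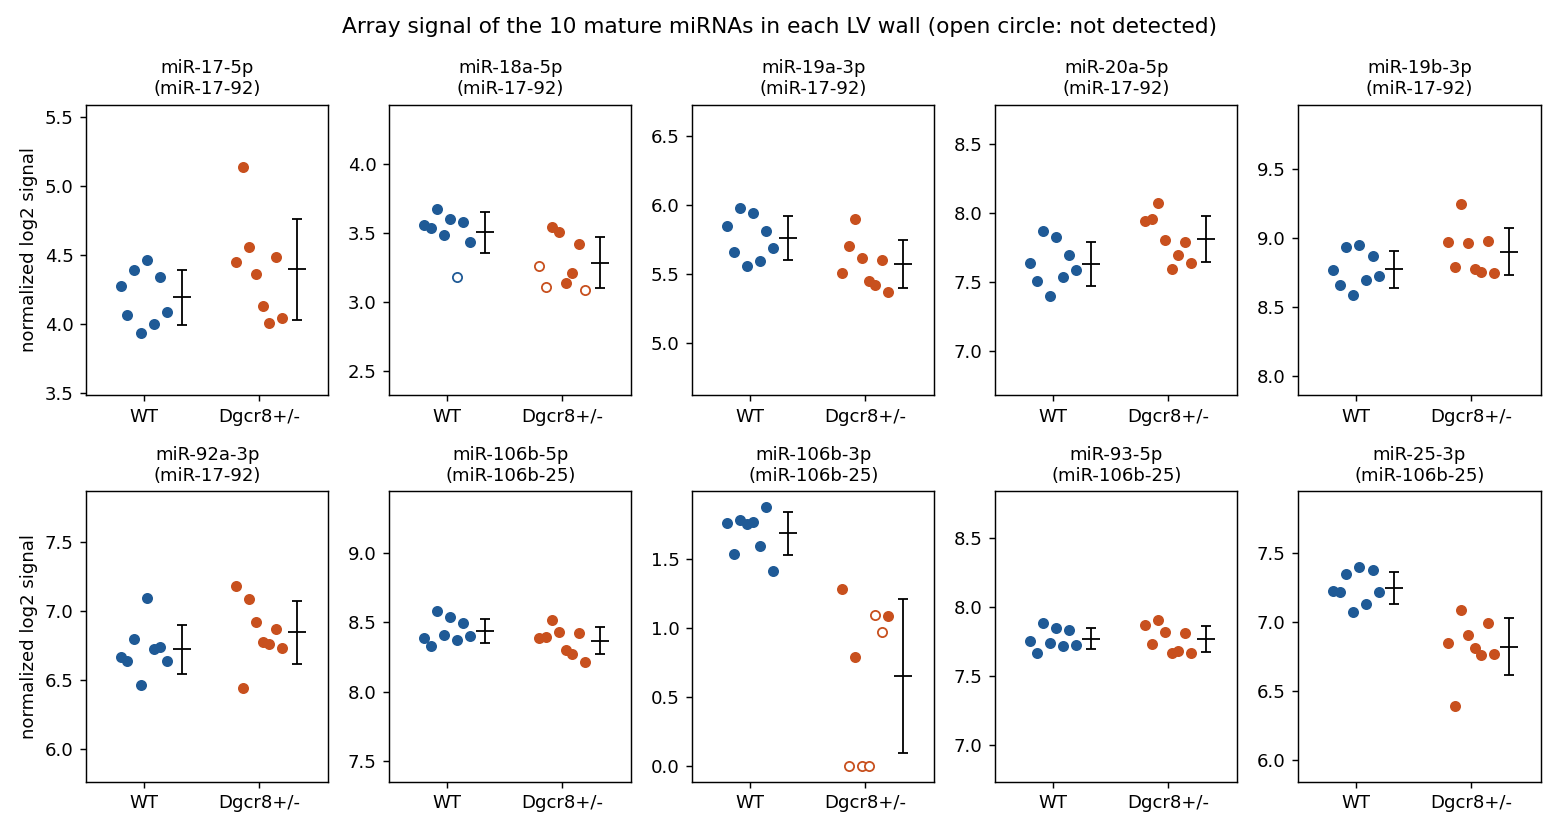
Normalized log2 signal of each of the 10 mature miRNAs on each array, with WT and Dgcr8+/- mice side by side in replicate order; bars give the mean and SD of 8 mice, and every panel spans at least the same range of log2 units. Open circles are arrays on which the miRNA was not detected: 1 WT and 3 Dgcr8+/- arrays for miR-18a-5p and 5 Dgcr8+/- arrays for miR-106b-3p, 3 of them at the floor of 0.

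Quantile normalization gives all arrays the same distribution and removes any change shared by most miRNAs. With no normalization between arrays, all 10 members were lower on average in Dgcr8+/- mice, 8 of them past the adjusted threshold of limma, as were 59.2% of the tested miRNAs. The median log2 fold change was then −0.55 for the 10 members and −0.39 for all tested miRNAs. Among the 8 members detected on all arrays, the unnormalized difference ran from −0.91 for miR-25-3p to −0.16 for miR-17-5p. That of miR-106b-3p, −1.47, was set in part by the floor, at which 3 Dgcr8+/- arrays lay. The directions given below for miR-17-5p, miR-20a-5p, miR-19b-3p and miR-92a-3p are thus relative to the other miRNAs of an array and turn without normalization. Those of miR-25-3p, miR-106b-3p, miR-18a-5p and miR-19a-3p were negative on both scales. The differences of miR-106b-5p and miR-93-5p were also negative on both, but near 0 on the normalized scale.

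MiR-25-3p, a bright member detected on every array, had the best measured fall of miR-106b-25. Its log2 signal spanned 7.08 to 7.40 in WT mice (median 7.22) and 6.39 to 7.09 in Dgcr8+/- mice (median 6.83.) Of the 8 Dgcr8+/- mice, 7 lay below the lowest WT mouse, and the exception, replicate 3 at 7.09, lay just above it. The mean of 7.25 ± 0.12 (SD, n = 8) in WT mice fell to 6.82 ± 0.21 (SD, n = 8), which is 74.4% of WT. The log2 fold change was −0.43 (SE 0.08, adjusted p = 0.000331 from limma). An exact permutation test of the single value, 2-sided over all groupings of 8 against 8 mice, gave p = 0.000311. The fall was present in both probes of miR-25-3p, −0.46 and −0.41. It was also present within slides, −0.63 on slide 1 and −0.40 on slide 2, without overlap of the genotypes on either. With only 2 Dgcr8+/- arrays on slide 1 and 2 WT arrays on slide 2, such separation is easily met. How many of all tested miRNAs lacked overlap within a slide was not counted. Replicate 2 had the lowest value, and without that mouse the log2 fold change was −0.37.

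The other members of the same transcript that were detected on every array, miR-93-5p and miR-106b-5p, moved little on the normalized scale. Without normalization their differences were −0.54 and −0.62, beside a median of −0.39 for all tested miRNAs. The log2 signal of miR-93-5p, which represses cell cycle inhibitors together with miR-106b-5p, spanned 7.67 to 7.88 in WT mice (median 7.74) and 7.67 to 7.91 in Dgcr8+/- mice (median 7.77.) These ranges lie almost on top of each other. Its log2 fold change was −0.0011 (95% interval −0.10 to 0.10, adjusted p = 0.988 from limma), the narrowest interval among the members. The log2 signal of miR-106b-5p spanned 8.33 to 8.58 in WT mice (median 8.41) and 8.22 to 8.52 in Dgcr8+/- mice (median 8.39). Its log2 fold change was −0.07 (95% interval −0.18 to 0.04, adjusted p = 0.238 from limma). The spread of these values among mice was small, with an SD of at most 0.10 in either genotype for both miRNAs.

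MiR-106b-3p, the other arm of the hairpin that gives miR-106b-5p, was lower in all 8 Dgcr8+/- mice than in any WT mouse, at signals close to the background. The log2 signal spanned 1.41 to 1.87 in WT mice (median 1.76) and 0 to 1.28 in Dgcr8+/- mice (median 0.88.) Of the Dgcr8+/- mice, replicates 2, 4 and 5 lay at the floor and only replicates 1, 3 and 8 had a detected signal. MiR-106b-3p thus met the detection filter through the 8 WT arrays, the genotype in which it was higher. The p-values given next do not allow for that selection. The WT mean of 1.68 ± 0.15 (SD, n = 8) compared with 0.65 ± 0.56 (SD, n = 8), for a log2 fold change of −1.03 (SE 0.19, adjusted p = 0.000233 from limma; exact permutation p = 0.000155, the smallest that 8 against 8 mice can give). The difference was −1.68 within slide 1 and −0.84 within slide 2 (adjusted p = 0.0530 from limma on that slide), without overlap on either. Both Dgcr8+/- arrays of slide 1, replicates 2 and 5, lay at the floor, so the size of −1.68 was set by the floor. The software's own total signal is not normalized between arrays and lists an undetected miRNA at 0.1. It ran from 1.695 to 2.98 in WT mice, and its highest value in a Dgcr8+/- mouse, 1.689, lay just below that range. After quantile normalization this total signal gave a log2 fold change of 0.21, the other direction.

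The size of this fall depended on which of the 4 probes of miR-106b-3p was read. Probes 1 and 2 had mean signals below 0 in both genotypes and lay below the floor on all 16 arrays. The floor was applied only after the probes were averaged, so their negative values entered the signal of miR-106b-3p. They averaged −2.90 in WT and −4.18 in Dgcr8+/- mice for probe 1, and −1.61 and −2.49 for probe 2, and thus added to the fall. Probe 3 averaged 2.09 signal units in WT mice and 0.558 in Dgcr8+/- mice. Probe 4 carried most of the signal, with means of 15.3 and 11.8 and no array at the floor. Read from probe 4 alone, a choice made after its values were seen, WT mice had a log2 signal of 3.93 ± 0.12 (SD, n = 8), whereas Dgcr8+/- mice had 3.54 ± 0.31 (SD, n = 8), a log2 fold change of −0.40 (SE 0.11, adjusted p = 0.00607 from limma; exact permutation p = 0.00171). On that probe 4 of the 8 Dgcr8+/- mice lay below the lowest WT mouse. Averaging log2 values over the probes gave −0.29, and a normexp background correction of the median spot signal, with an offset of 50, gave −0.03 (adjusted p = 0.0496 from limma). The direction was the same in each of these readings, while the value spanned a wide range.

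Where the spots of each probe and then all probes were averaged, outlier marks decided whether a fall of miR-106b-3p was seen. The software marks a spot that is uneven within itself as non-uniform, and marks one far from the other spots of its probe as a population outlier. Marked spots were 22 of 240 in WT mice (9.17%) and 14 of 240 in Dgcr8+/- mice (5.83%), beside 0.417% to 2.92% for each genotype of the other 9 members. Of these 36 marked spots, 34 belonged to the 2 probes below background and 21 had signals below 0. A single marked spot was bright, a spot of probe 2 on Dgcr8+/- replicate 5 with a signal of 5753 and both kinds of mark. The next highest marked spot read 31.8, and the 7 unmarked spots of probe 2 on the same array ran from −8.95 to 3.00.

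With every marked spot kept, that 1 spot lifted Dgcr8+/- replicate 5 from the floor to a log2 signal of 7.57, far above the WT range of 1.33 to 1.92. The Dgcr8+/- mean became 1.66 ± 2.44 (SD, n = 8), and the log2 fold change was 0.0078 (SE 0.80, adjusted p = 0.996 from limma). Keeping all marked spots but leaving out that mouse gave −0.83 (adjusted p = 0.00317 from limma). Leaving out only non-uniform spots gave −0.95, and the median over all spots of each probe gave −0.99. With averaged spots, the mark of a single spot thus set the value, and the other 35 marked spots moved it less. Over all tested miRNAs, keeping the marked spots moved the log2 fold change by a median of 0.017 and by more than 0.5 for 16 of 495, and miR-106b-3p ranked 3 by the size of its move.

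**Figure D2:**
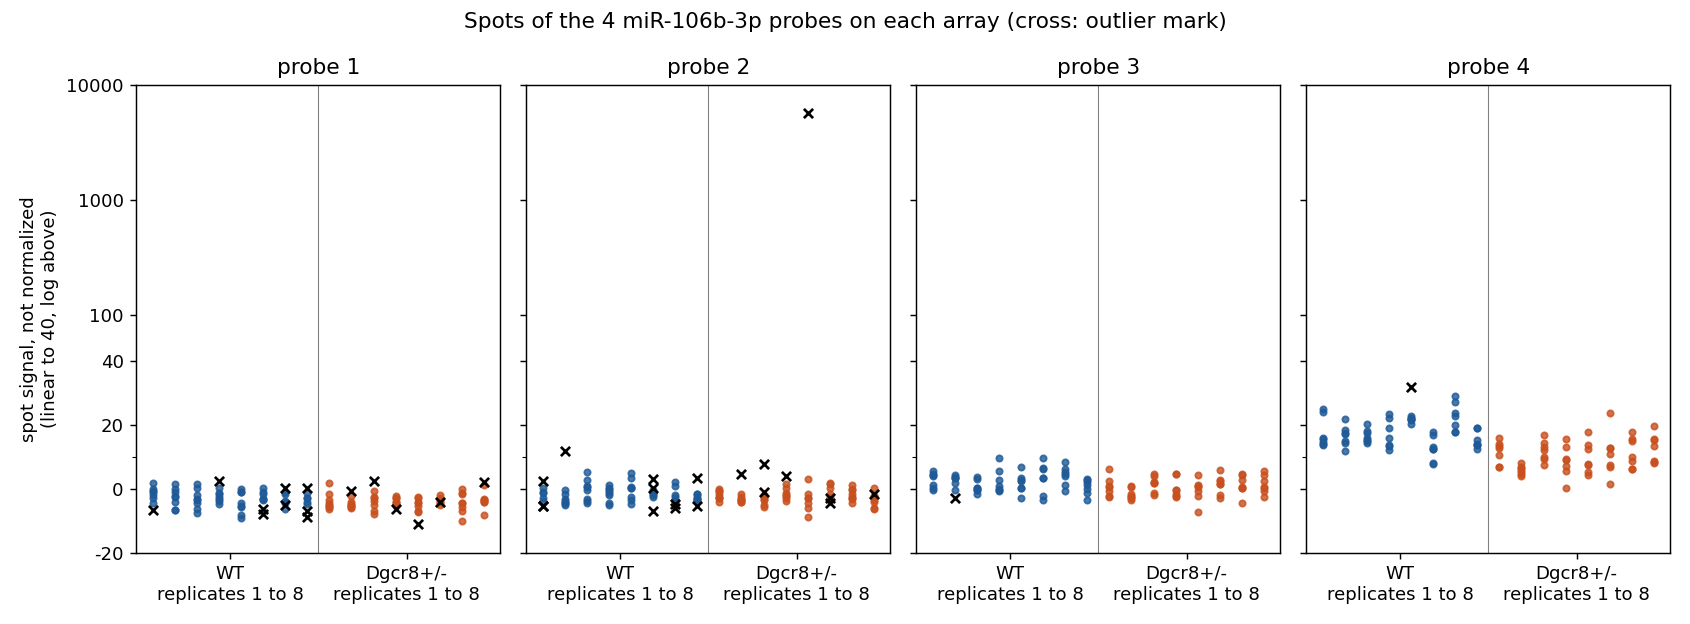
Signal of each spot of the 4 miR-106b-3p probes on each array, before normalization, on an axis that is linear to 40 and logarithmic above; crosses are spots with an outlier mark. Probes 1 and 2 lie around or below 0 apart from 1 marked spot of 5753 on Dgcr8+/- replicate 5, and probe 4 carries the signal.

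MiR-106b-5p held a similar spot. On Dgcr8+/- replicate 2, a population outlier of its probe 2 read 42004, while the 14 unmarked spots of that probe ran from 137 to 170. When it was kept, the log2 signal of this mouse went from 8.40 to 11.6 and the log2 fold change of miR-106b-5p from −0.07 to 0.36 (SE 0.38, adjusted p = 0.462 from limma). With all marked spots kept but without replicate 2 it was −0.05. For the other 8 members the marked spots moved the log2 fold change by 0.035 or less, and miR-25-3p stayed at −0.41 (adjusted p = 0.00263 from limma).

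**Figure D3:**
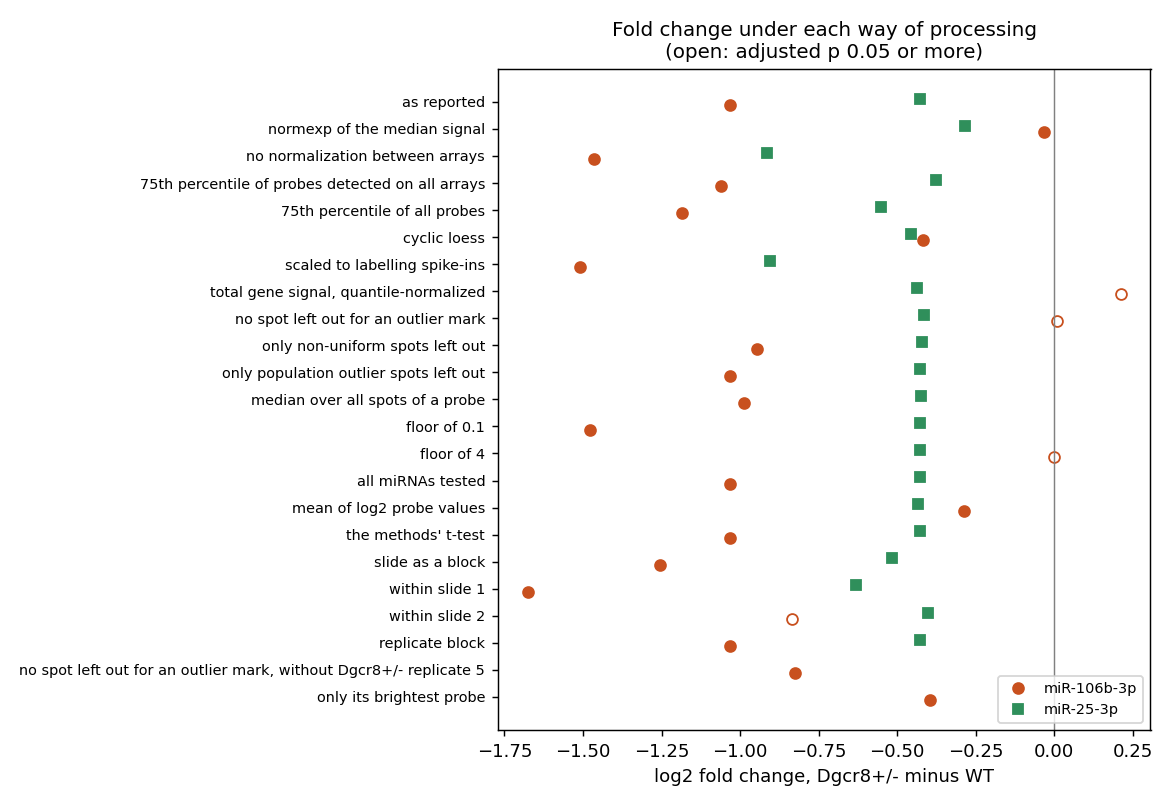
Log2 fold change of miR-106b-3p (circles) and miR-25-3p (squares) under each way of processing, with open symbols where the adjusted p of limma, or of the methods' t-test in its row, was 0.05 or more. MiR-25-3p ran from −0.91 to −0.28 and miR-106b-3p from −1.68 to 0.21.

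Within miR-17-92, miR-18a-5p was the member past the threshold, by a small amount. It is the sole member with the miR-18 seed. Its log2 signal spanned 3.18 to 3.67 in WT mice (median 3.55) and 3.09 to 3.55 in Dgcr8+/- mice (median 3.24), so that the genotypes overlapped. The log2 fold change was −0.22 (SE 0.08, adjusted p = 0.0289 from limma; exact permutation p = 0.0219). It no longer passed when WT replicate 3, 5 or 7 or Dgcr8+/- replicate 5 or 8 was left out, with a highest adjusted p of 0.0581 from limma. It was −0.36 on slide 1 (adjusted p = 0.0457 from limma) and −0.22 on slide 2 (adjusted p = 0.178 from limma). On slide 1 the 2 Dgcr8+/- arrays lay below the 6 WT arrays. The call was also lost with scaling at percentile 75 of the detected probes (−0.06, adjusted p = 0.566 from limma), with the normexp correction (−0.02, adjusted p = 0.196) and with the total gene signal (−0.51, adjusted p = 0.336). With all miRNAs of the array tested, the adjusted p of limma was 0.101.

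The miR-19 pair split in direction. MiR-19a-3p spanned 5.56 to 5.98 in WT mice (median 5.75) and 5.37 to 5.90 in Dgcr8+/- mice (median 5.56), and 4 Dgcr8+/- mice lay below the lowest WT mouse. Its log2 fold change was −0.19 (SE 0.08, adjusted p = 0.0550 from limma). MiR-19b-3p spanned 8.58 to 8.95 in WT mice (median 8.75) and 8.74 to 9.24 in Dgcr8+/- mice (median 8.88), and here the Dgcr8+/- values leaned to the high side. Its log2 fold change was 0.13 (SE 0.08, adjusted p = 0.151 from limma). It was 0.0057 within slide 1 and 0.18 within slide 2. Neither change passed the threshold on its own.

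The miR-17 seed pair of the cluster, miR-17-5p and miR-20a-5p, which repress E2f1 and Cdkn1a, leaned up on the normalized scale. MiR-20a-5p spanned 7.40 to 7.87 in WT mice (median 7.61) and 7.59 to 8.07 in Dgcr8+/- mice (median 7.80), a log2 fold change of 0.18 (SE 0.08, adjusted p = 0.0660 from limma). MiR-17-5p spanned 3.93 to 4.46 in WT mice (median 4.18) and 4.01 to 5.14 in Dgcr8+/- mice (median 4.41). Its log2 fold change was 0.20 (SE 0.14, adjusted p = 0.213 from limma), and 0.10 without Dgcr8+/- replicate 2, which had the value of 5.14. It was 0.44 within slide 1 and 0.11 within slide 2. MiR-92a-3p, the last hairpin of the transcript and the paralog of miR-25-3p, spanned 6.47 to 7.10 in WT mice (median 6.70) and 6.45 to 7.19 in Dgcr8+/- mice (median 6.82). Its log2 fold change was 0.13 (95% interval −0.08 to 0.33, adjusted p = 0.279 from limma), and it was −0.12 within slide 1 and 0.24 within slide 2.

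Whether members of a transcript or of a seed changed alike was tested by taking the difference of their log2 signals within each array and comparing it between the genotypes. A factor shared by all signals of an array cancels in such a difference. There were 26 pairs, 15 within miR-17-92, 6 within miR-106b-25 and 5 of one seed across the transcripts, and each was tested by an exact permutation test over the 16 arrays with Benjamini-Hochberg adjustment over the 26. The genotype difference was unequal for 18 of the 26 pairs, for 8 of the 15 within miR-17-92 and for all 6 within miR-106b-25. Without adjustment, the same 18 had an exact permutation p below 0.05. By the unadjusted rule 61.2% of all 122265 pairs of tested miRNAs were unequal, and 56.9% after adjustment over all of them, so that 18 of 26 is near the share of the array and not particular to members of a transcript or a seed. Of the 3 pairs that hold miR-106b-3p all differed, and 15 of the other 23 pairs did. Among the 18 pairs of members that were detected on all 16 arrays, 11 differed.

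Within miR-106b-25, miR-25-3p changed unequally to both other bright members. Against miR-93-5p the log2 fold changes differed by 0.43 (95% interval 0.28 to 0.57, adjusted p = 0.000505 in the exact permutation test), miR-25-3p being the lower. The within-array difference between these miRNAs did not overlap between the genotypes. How many of all pairs of tested miRNAs lack such overlap was not counted, here or for the pairs below. Against miR-106b-5p the gap was 0.36 (95% interval 0.20 to 0.51, adjusted p = 0.000505 in the same test), again without overlap. MiR-106b-5p and miR-93-5p, which share the miR-17 seed and the transcript, differed by only −0.07 (95% interval −0.11 to −0.03, adjusted p = 0.00155 in the same test). It was −0.02 within slide 1 and −0.08 within slide 2. Keeping the bright marked spot of miR-106b-5p turned this small difference to 0.34 and ended the call, whereas the gap of either miRNA to miR-25-3p passed in all 30 alternatives tried, which do not include the slides.

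Both arms of the Mir106b hairpin changed unequally, by 0.96 (95% interval 0.51 to 1.41, adjusted p = 0.000505 in the exact permutation test), with the 3p arm lower. It was 1.58 within slide 1, where miR-106b-3p lay at the floor on both Dgcr8+/- arrays, and 0.80 within slide 2. This value carries the limits of miR-106b-3p. With no marked spot left out the difference was 0.35 (95% interval −1.92 to 2.62), which did not pass, and it turned with the total gene signal (−0.24), with a floor of 4 signal units (−0.07) and with the normexp correction (−0.03), none of which passed. The mean of log2 probe values gave 0.23 (adjusted p = 0.0664 in the same test).

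Within miR-17-92, miR-18a-5p and miR-19a-3p stood on one side and miR-17-5p, miR-20a-5p, miR-19b-3p and miR-92a-3p on the other. The sides were drawn from the signs of these log2 fold changes, which favours gaps across them. All 8 pairs with a member from each side differed, by 0.31 to 0.42 in size, and none of the 7 pairs within a side did. The 8 gaps had the same direction on both slides, with sizes of 0.07 to 0.81 within slide 1 and 0.28 to 0.46 within slide 2. Over both slides, the narrowest interval of these 8 pairs was that of miR-19a-3p against miR-20a-5p, −0.37 (95% interval −0.44 to −0.29, adjusted p = 0.000505 in the exact permutation test). The within-array differences of that pair did not overlap between the genotypes. MiR-19a-3p and miR-19b-3p, which the sequences above show to differ at U11C alone, differed by −0.32 (95% interval −0.41 to −0.23, adjusted p = 0.000735 in the same test). The gap was −0.20 within slide 1 and −0.34 within slide 2. That of miR-19a-3p to miR-92a-3p was −0.31 over both slides, but −0.07 within slide 1 and −0.40 within slide 2. MiR-17-5p and miR-20a-5p differed by 0.02 (95% interval −0.18 to 0.23, adjusted p = 0.933 in the same test), an interval that allows either to have changed more. That gap was 0.31 within slide 1, −0.11 within slide 2 and −0.06 without Dgcr8+/- replicate 2. The 4 pairs that set miR-19a-3p against the other side passed in all 30 alternatives tried, whereas the 4 with miR-18a-5p were lost with the total gene signal, on which miR-18a-5p stands at 0.1 where undetected, and 2 of them with a normexp correction. In the order of the hairpins, miR-18a and miR-19a are neighbours and lie between miR-17 and miR-20a, which are on the other side. A relation of the sides to this order was not tested. MiR-19b-3p and miR-92a-3p can also come from the cluster on chromosome X.

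Pairs of one seed were also unequal across the transcripts, for 4 of 5. The largest gap was that of miR-92a-3p and miR-25-3p, 0.55 (95% interval 0.42 to 0.69, adjusted p = 0.000505 in the exact permutation test), without overlap of the genotypes. It was 0.51 within slide 1, 0.64 within slide 2 and 0.55 without Dgcr8+/- replicate 2, and it lay between 0.37 and 0.58 and passed in all 30 alternatives tried. MiR-20a-5p exceeded miR-106b-5p by 0.25 (95% interval 0.14 to 0.35) and miR-93-5p by 0.18 (95% interval 0.07 to 0.29), both past the threshold. MiR-17-5p exceeded miR-106b-5p by 0.27 (95% interval 0.01 to 0.53, adjusted p = 0.0233 in the same test), but no longer passed without WT replicate 4 (0.24), WT replicate 6 (0.26) or Dgcr8+/- replicate 2 (0.17), and was 0.54 within slide 1 and 0.15 within slide 2. With the bright marked spot of miR-106b-5p kept, the gaps of miR-20a-5p and miR-17-5p to it turned to −0.16 and −0.12 and did not pass. The gap of miR-17-5p to miR-93-5p, 0.20 (95% interval −0.07 to 0.48), did not pass, and was 0.09 without Dgcr8+/- replicate 2. With marked spots left out, the miRNA of miR-106b-25 had the lower log2 fold change in each of these pairs, which share members.

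**Figure D4:**
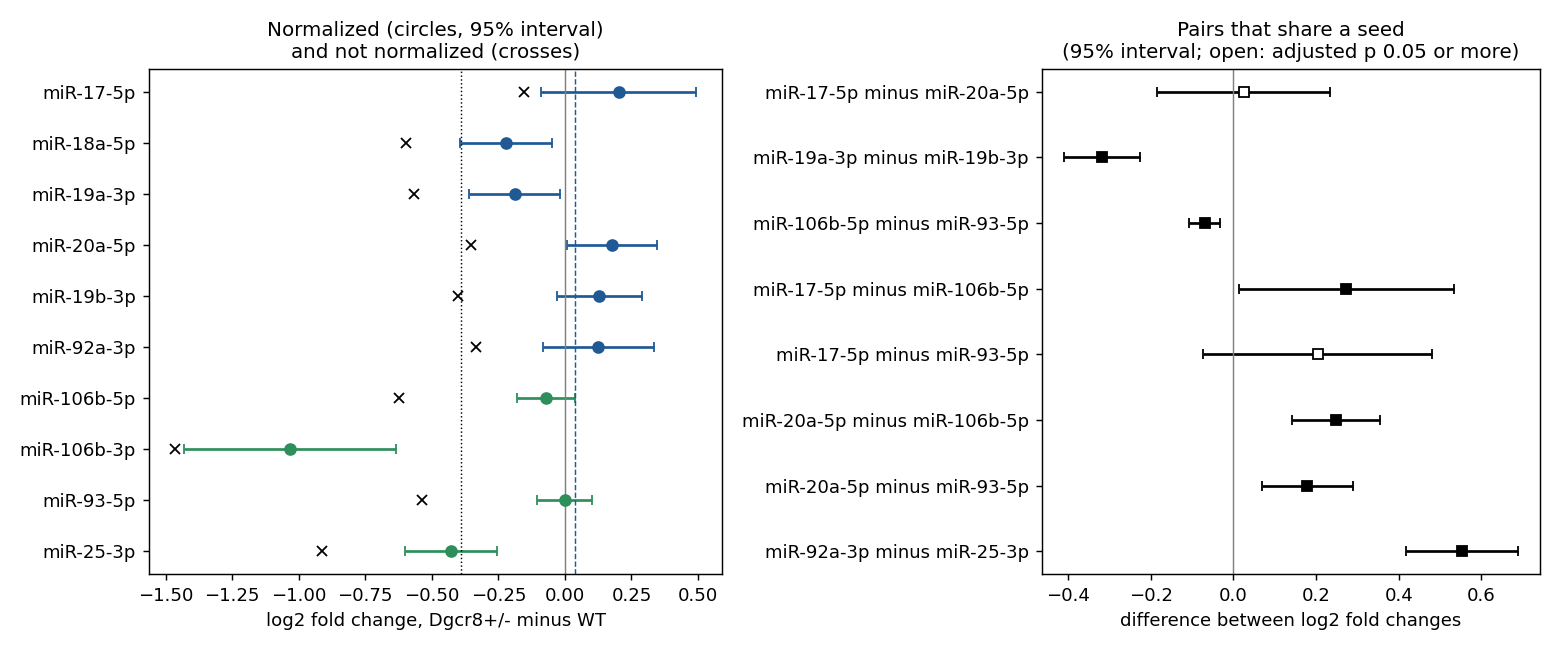
Left, log2 fold change of each member with its 95% interval from limma (blue, miR-17-92; green, miR-106b-25) and the unnormalized difference as a cross; dashed and dotted lines are the medians of all tested miRNAs, 0.04 normalized and −0.39 not normalized. Right, difference between the log2 fold changes of the 8 pairs with a shared seed, with its 95% interval, of which 6 passed the exact permutation test.

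The relatives of the members gave few measurable signals. Of 20 listed relatives, namely the other arms of the hairpins, the cluster on chromosome X and further miRNAs with the miR-92 seed, 19 were on the array, 16 of these were detected on no array and 3 were tested. None of the 3 passed the threshold. MiR-17-3p, the other arm of Mir17, had a log2 fold change of 0.17 (SE 0.09, adjusted p = 0.125 from limma), next to 0.20 for miR-17-5p, and both were 0.10 without Dgcr8+/- replicate 2. MiR-20b-5p, the miR-17 seed miRNA of the X cluster, ran from 6.55 to 7.00 in WT mice and from 6.72 to 7.21 in Dgcr8+/- mice, a log2 fold change of 0.17 (SE 0.09, adjusted p = 0.102 from limma). MiR-32-5p, with the miR-92 seed, had −0.20 (SE 0.11, adjusted p = 0.118 from limma).

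Read by seed over all miRNAs of the array whose RefSeq sequence was given, the miR-17 seed AAAGUGC was held by 6 miRNAs, of which 5 were tested and 0 passed, with log2 fold changes between −0.07 and 0.20. The miR-92 seed AUUGCAC was held by 6, of which 4 were tested and miR-25-3p alone passed. MiR-92b-3p, found in this search and not in the list of relatives, had −0.04 (SE 0.08, adjusted p = 0.701 from limma). Differences between miR-25-3p and these other miRNAs of its seed were not tested, apart from that with miR-92a-3p.

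Around the genotype means, several members rose and fell together from mouse to mouse. After the mean of each genotype was subtracted, the miRNA most like miR-106b-5p among all tested was miR-93-5p, and the reverse, with a Pearson r of 0.93 over the 16 arrays. The miRNA most like miR-20a-5p was miR-20b-5p of the X cluster, with r of 0.96, and miR-20b-5p was also the nearest to miR-17-5p, with 0.90, and to miR-19a-3p, with 0.93. MiR-19b-3p was nearest to miR-93-5p, with 0.92, miR-18a-5p to miR-19b-3p, with 0.76, and miR-92a-3p to miR-15b-5p, with 0.89. MiR-25-3p was nearest to miR-181a-1-3p, with 0.93. Without Dgcr8+/- replicate 2 the nearest miRNA changed for 5 of the 10 members. It became miR-19b-3p for miR-25-3p, with 0.91, and for miR-19a-3p, with 0.94. It became miR-19a-3p for miR-18a-5p, with 0.81, miR-20b-5p for miR-19b-3p, with 0.96, and miR-23a-3p for miR-92a-3p, with 0.85. MiR-106b-3p was nearest to miR-744-3p, with 0.74, and its r with miR-106b-5p from the other arm was −0.02. Without Dgcr8+/- replicate 2 these were 0.66 and 0.02. Since miR-106b-3p lay at the floor on 3 Dgcr8+/- arrays, its r cannot show whether the arms vary together. All values of r share the arrays, their normalization and, for near-identical sequences, possible cross-hybridisation, and are a description.

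Marker miRNAs of cell types that the dissection can hold were read beside these results, in 7 lists with 21 miRNAs. Of these, 3 were lower and 2 higher past the threshold of limma, beside 27.9% and 28.3% of all tested miRNAs. Of 5 multiciliated cell markers of the miR-34 and miR-449 families, 4 were detected on all arrays and 1 on none, and their summed signal ran from 530 to 1257 in WT mice and from 849 to 1530 in Dgcr8+/- mice. Choroid plexus markers, 2 of 2 detected on all arrays, ran from 533 to 733 in WT mice and from 403 to 624 in Dgcr8+/- mice, and 1 of the 2 was lower past the threshold. Red blood cell markers, of which 2 of 3 were detected on all arrays, ran from 531 to 889 in WT mice and from 467 to 725 in Dgcr8+/- mice, and 1 of the 3 was lower past the threshold. Neuronal markers, 3 of 3 detected on all arrays, ran from 34536 to 37235 in WT mice and from 34662 to 37474 in Dgcr8+/- mice, and 1 was lower. Oligodendrocyte markers, also 3 of 3, ran from 8007 to 12063 and from 8173 to 11305, and 1 was higher. Endothelial markers, 2 of 2, ran from 1529 to 1681 and from 1394 to 1769, and 1 was higher. Microglia and leukocyte markers, 2 of 3 detected on all arrays, ran from 116 to 138 and from 97.5 to 132, and 0 passed. The part of these cell types in the falls of miR-25-3p and miR-106b-3p was not tested.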

How the data were processed

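Total RNA (100 ng) from the LV wall was labelled with Cy3 and hybridised to 1-colour Agilent mouse miRNA arrays. Per array, the authors deposited a spot table with a background-corrected intensity and outlier marks from Feature Extraction, version 10.7.3.1 per the file headers and 10.5.1.1 per the submitters' processing notes. They also deposited a table of total gene signal intensity, equal to that of the scanner files, in which undetected miRNAs stand at 0.1. Both are without normalization between arrays. Here marked spots were left out, spots of each probe averaged, the 4415 probes quantile-normalized as in the study's methods (R 4.3.3, limma 3.58.1), probes of a miRNA averaged, values under 1 set to 1 and log2 taken. Genotypes, 8 mice each, were compared in limma, with adjusted p-values (Benjamini-Hochberg) below 0.05 called. Pairs of members and single values were compared by exact permutation. Scripts were tested on simulated data. Alternatives covered background, normalization, marks, floor, filter, probe summary, test, slide, replicate number and leaving out each array. The members, the relatives and the marker lists were chosen with earlier results of these data known. The miRNAs named were the 10 members, the listed relatives and, for each member, the tested miRNA most correlated with it, also without Dgcr8+/- replicate 2. Dgcr8 mRNA is not measured by this array, so the genotype labels were not checked by it. The number of arrays limits the precision.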

Additional observations from a re-analysis of the deposited data

Results flagged for a closer look

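In 26 groups of 8 mice, the 10 members and 3 tested relatives in each genotype, 2 groups had a mouse whose gap to its nearest neighbour was an unusually large part of the group's range, where chance gives about 1 in 20. The log2 signal of miR-25-3p in Dgcr8+/- replicate 2 was 6.39, below the 6.76 to 7.09 of the other 7 Dgcr8+/- mice. That of miR-19b-3p in Dgcr8+/- replicate 3 was 9.24, above the 8.74 to 8.97 of the others.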

How the results depend on the processing

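MiR-25-3p stayed lower and past the threshold in all 37 alternatives tried, from −0.91 to −0.28. MiR-106b-3p was 0.0078 with no spot left out for an outlier mark, 0.21 with the total gene signal, in which undetected miRNAs stand at 0.1 before normalization, 0 with a floor of 4, where every array lay at the floor, and −0.84 (adjusted p = 0.0530 from limma) within slide 2. Without single arrays it ran from −1.13 to −0.94. The number of members lower, 3, was 8 with no normalization and 8 when scaled to the labelling spike-ins, 1 when only miRNAs detected on all arrays were tested, which leaves out miR-106b-3p and miR-18a-5p, and 1 within slide 2, and ran from 2 to 4 without single arrays. The number higher, 0, was 2 when scaled at percentile 75 of always-detected probes and ran from 0 to 1 without single arrays. The number of unequal pairs, 18, was 10 with the total gene signal, 11 of the 18 pairs of members detected on all arrays, and 17 to 18 without single arrays.

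Other members changed sign as follows. With no normalization, miR-17-5p was −0.16, miR-19b-3p −0.40, miR-20a-5p −0.35 and miR-92a-3p −0.33, and when scaled to the labelling spike-ins these were −0.15, −0.39, −0.35 and −0.33. MiR-19b-3p was −0.040 with the 75th percentile of all probes, and miR-92a-3p −0.12 within slide 1. MiR-106b-5p was 0.36 with no marked spot left out and 0.35 with only non-uniform spots left out. MiR-93-5p, at −0.0011, was 0.0075 with normexp, 7.7e-05 with the 75th percentile of detected probes, 0.0024 with the total gene signal, 0.015 with no marked spot left out, 0.0031 with only non-uniform spots left out, 0.011 with the mean of log2 probe values, 0.043 within slide 2 and −0.020 to 0.015 without single arrays. Where not shown by the alternative itself, the cause was not tested.

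Replicate numbers are shared by the genotypes, and the deviations of same-numbered mice correlated from −0.14 to 0.50, above 0.1 for 5 of 8 numbers. These values do not settle whether same-numbered mice are pairs. The main fit was unpaired, like the Student's t-test of the study's methods. With the replicate number as a block, 4 members were lower, miR-19a-3p (adjusted p = 0.0338 from limma) being the one added, and miR-106b-3p was −1.03 (adjusted p = 0.000935 from limma). Of the 16 mice, 3 WT and 2 Dgcr8+/- mice correlated best with their own number in the other genotype. The alternative of the mean spot signal for normexp was run with the median signal, and the pair tests were not run with a block. Signals near background limit miR-106b-3p and miR-18a-5p most.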
